A study of Mus musculus with 42 samples.

Results

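The 10 genes described here encode transcription factors that hold mouse embryonic stem cells in the naive pluripotent state. They are Pou5f1 (Oct4), Sox2 and Nanog, the core factors, the Krüppel-like factors Klf2 and Klf4, and Esrrb, Tfcp2l1, Zfp42 (Rex1), Tbx3 and Prdm14. Rows were taken by gene symbol from both count tables, which hold 18825 rows in experiment 1 and 19866 in experiment 2. All 10 genes had a row in each table and passed the filter on low counts.

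Naive pluripotency is the state of the early epiblast, before its cells are primed for differentiation, and embryonic stem cells keep it in culture when differentiation signals are blocked or leukaemia inhibitory factor (LIF) is given. Pou5f1 and Sox2 bind DNA as a pair, and with Nanog they maintain their own genes and the wider network. LIF acts through the kinase Jak1 and the transcription factor Stat3 on genes such as Klf4 and Tfcp2l1, and Klf2, Esrrb and Tbx3 are further inputs that partly replace one another. The mRNAs of stem cells are also under control by microRNAs. Argonaute proteins such as Ago2, guided by a microRNA, recruit proteins of the GW182 family, of which Tnrc6a is a member, and these bring in the machinery that removes the poly(A) tail. Trim71 binds RNA too, is made mainly in stem and progenitor cells, and represses mRNAs.

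RNA was sequenced after immunoprecipitation (IP) of tagged Tnrc6a with anti-HA beads, and from the lysate (input), as 42 libraries in 14 groups of 3. Every cell line was a mouse embryonic stem cell line of the strain 129S6/SvEvTac with the reporter GFP_5xT71BS and a stably transfected FLAG-Cas9::T2A::Blasticidin construct, grown on gelatin with serum and LIF. Untagged cells carry nothing further, tagged cells carry HA-AVI-Tnrc6a, and the cells named Trim71KO or Ago2KO carry HA-AVI-Tnrc6a and are labelled Trim71-/- or Ago2-/-. Experiment 1 holds input and IP of untagged, tagged and Trim71KO cells, and experiment 2 holds the same and Ago2KO cells. The labels name no separate clones, and the design text states triplicate dishes, so the spread between libraries is that between dishes. The comparisons address which mRNAs are recovered with Tnrc6a, and whether this and the RNA level differ in cells without Trim71 or Ago2.

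The stretch just upstream of 4 members is shown because these genes are controlled by each other's products, and because they include the members with the highest and with low recovery in the IP described below. The sequences are the 250 bases before the start of the gene in RefSeq (GRCm38.p6), on the gene's own strand, 5′ to 3′. Nanog lies at chr6:122707239-122707488 on the plus strand, Zfp42 at chr8:43307010-43307259 on the minus strand, Klf2 at chr8:72318812-72319061 on the plus strand and Klf4 at chr4:55532476-55532725 on the minus strand. Capitals mark matches to the motifs searched.
Nanog: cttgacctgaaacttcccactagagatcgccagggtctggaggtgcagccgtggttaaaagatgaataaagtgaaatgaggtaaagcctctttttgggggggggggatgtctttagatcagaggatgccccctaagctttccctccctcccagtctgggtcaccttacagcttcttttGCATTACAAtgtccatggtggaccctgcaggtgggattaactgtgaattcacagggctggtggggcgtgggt
Zfp42: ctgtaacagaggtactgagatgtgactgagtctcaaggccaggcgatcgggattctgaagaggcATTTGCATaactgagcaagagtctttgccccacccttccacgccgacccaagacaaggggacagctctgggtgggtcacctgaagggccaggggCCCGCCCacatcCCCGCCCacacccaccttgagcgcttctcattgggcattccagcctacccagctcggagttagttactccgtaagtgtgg
Klf2: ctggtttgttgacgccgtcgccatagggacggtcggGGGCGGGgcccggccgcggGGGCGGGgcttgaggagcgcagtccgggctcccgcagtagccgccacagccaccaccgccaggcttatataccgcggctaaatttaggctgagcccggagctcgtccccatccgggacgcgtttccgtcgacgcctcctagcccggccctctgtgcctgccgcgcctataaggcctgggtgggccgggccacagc
Klf4: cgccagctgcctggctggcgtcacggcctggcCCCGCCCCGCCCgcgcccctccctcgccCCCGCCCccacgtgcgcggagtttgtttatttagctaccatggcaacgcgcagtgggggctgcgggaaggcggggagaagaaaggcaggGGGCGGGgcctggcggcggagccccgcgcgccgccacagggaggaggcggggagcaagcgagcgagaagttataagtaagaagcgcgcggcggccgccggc

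A script searched 5 motifs on both strands in the windows of the 8 members that have an entry, which are all but Tbx3 and Prdm14, and in all 32851 windows of that length. The 8 members have 11 windows, since Pou5f1, Nanog and Esrrb have a further start. No motif matched in the window at the further start of Pou5f1 or Esrrb. The SOX-OCT composite, searched as TTGTNATGC, matched upstream of Nanog on the strand opposite to the gene. The match lies 72 bases before the start used above and 148 before the further one. A match is held by 0.648% of all windows. The octamer ATGCAAAT, whose first letters are the last of the composite, matched in the Zfp42 window, as it does in 1.6% of windows. The GC box GGGCGGG, which SP and KLF factors bind, matched at 2 places upstream of Klf2, of Zfp42 and of Sox2. It matched at 1 place upstream of Pou5f1 and at 4 upstream of Klf4, where the matches 218 and 213 bases before the start overlap. It is found in 23.4% of all windows. The STAT motif TTCNNNGAA (7.02% of windows) matched upstream of Esrrb alone among the 8 members, and the ERR motif CAAGGTCA (1.33%) upstream of none. These matches describe the letters of the windows, and binding was not measured.

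The order of the mRNA levels in untagged input was set on TMM-scaled CPM, the count of a gene relative to the library total after edgeR's correction for composition, divided by the gene length in kilobases (CPM per kb). Pou5f1 was highest, at 692 ± 19.8 CPM per kb in experiment 1 and 663 ± 21.7 in experiment 2 (SD, n = 3). Zfp42 (349 ± 7.32 and 331 ± 9.74), Nanog (253 ± 10.6 and 286 ± 18.5) and Sox2 (213 ± 8.72 and 282 ± 6.88) followed. The next places were held by Klf4, Klf2, Esrrb, Tfcp2l1 and Tbx3, from 158 ± 10.3 down to 59.4 ± 2.26 CPM per kb in experiment 1. Prdm14, a PR-domain factor that restrains FGF signalling and DNA methylation, was lowest at 13.2 ± 0.886 and 13.4 ± 0.711. Libraries of neighbours in this order did not overlap, except those of Nanog and Sox2 in experiment 2. The authors' RPKM values gave the same order of the 10 genes in each of the 14 groups. Pou5f1 led in every input group, and Klf2 led in every IP group of tagged cells, at 1628 ± 249 CPM per kb in tagged IP of experiment 1 and 854 ± 202 in experiment 2. Values below are CPM without division by length, and each is compared within 1 gene.

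**Figure D1:**
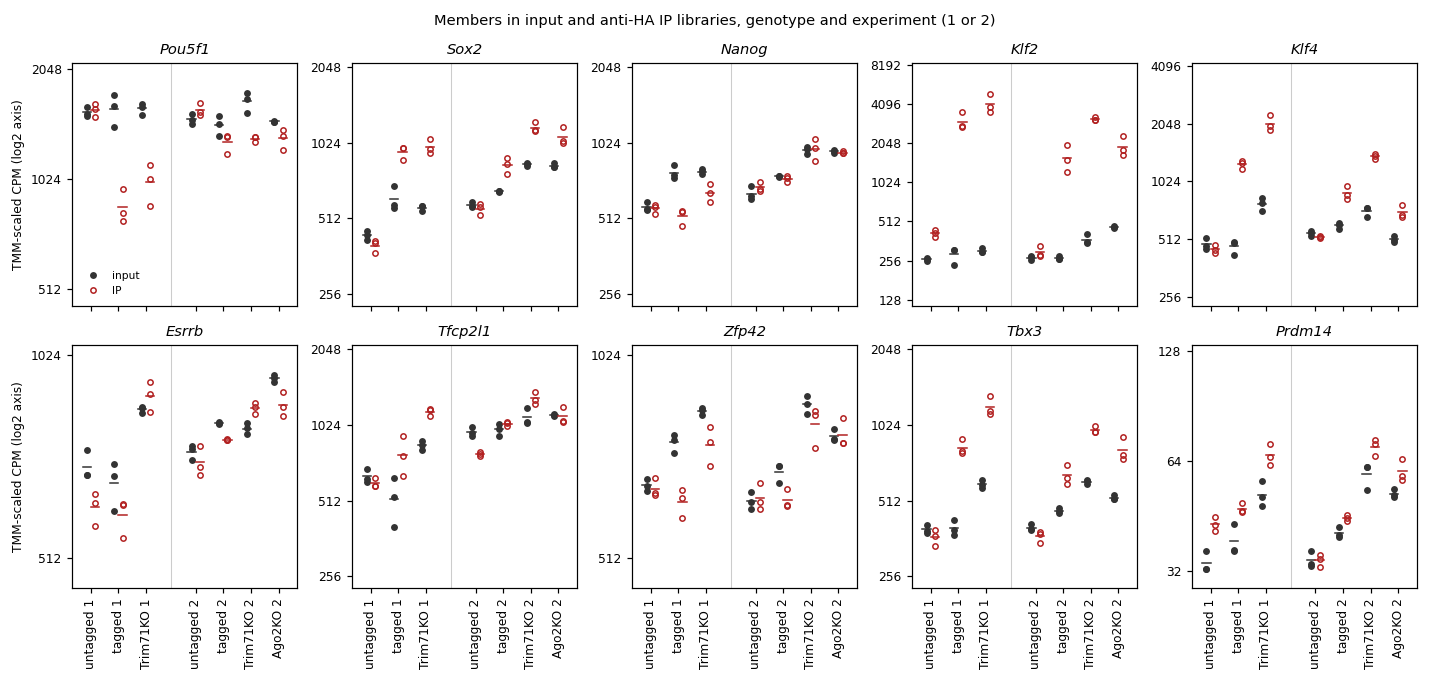
TMM-scaled CPM (log2 axis) of each of the 10 genes in every library, with input as filled points, IP as open points and the mean of the 3 libraries as a bar; the number after the genotype is the experiment. In tagged cells the IP points of Klf2 lie far above the input points, those of Klf4, Tbx3 and Sox2 lie above them, and those of Pou5f1 lie below.

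Library totals ran from 12587257 to 23657840 counts in experiment 1 and from 16296447 to 21026552 in experiment 2, and the 10 genes took 0.457% to 1.3% and 0.593% to 1.07% of them. TMM factors ran from 0.8265 to 1.143 and from 0.8392 to 1.097. Tnrc6a mRNA stood 294-fold higher in IP than in input of tagged cells in experiment 1 and 206-fold in experiment 2, against 0.907-fold and 0.863-fold in untagged cells. Ago2 RNA was lower in Ago2KO than in tagged input (log2 difference -1.12, SE 0.10, edgeR adjusted p 2.52e-08). Trim71 RNA was higher in libraries labelled Trim71KO than in tagged input, by 0.23 and 0.42 on the log2 scale in experiments 1 and 2 (edgeR adjusted p 0.0437 and 0.000411), so the RNA level does not check that label and directions refer to the libraries so labelled. The tagged input libraries of experiment 1 spread widely for Ago2, at 358, 179 and 255 CPM.

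Input RNA of Trim71KO cells held more mRNA of several members than tagged input, and no member was called lower. A gene was called where edgeR's quasi-likelihood test gave an adjusted p under 0.05, with Benjamini-Hochberg adjustment across the whole table. In experiment 1, 5 of 10 members were called higher and 0 lower, where 16.5% of the 18772 genes tested were called higher and 17.4% lower. In experiment 2, 8 of 10 were called higher and 0 lower, against 13.5% and 13.7% of 19778 genes. The median log2 difference of the members was 0.26 in experiment 1 and 0.34 in experiment 2, and that of all genes -0.01 in both. With scaling by library size alone 34.6% of all calls in experiment 2 were higher against 49.6% with TMM, and 7 members were called higher. In bulk RNA, more cells in the naive state and more RNA per cell cannot be told apart.

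Of the core factors, none was called in experiment 1 and all 3 were higher in experiment 2. Sox2, an HMG-box factor, stood at 580, 687 and 564 CPM in tagged input of experiment 1 and at 546, 576 and 575 in Trim71KO, so the groups overlapped (log2 difference -0.11, SE 0.09, edgeR adjusted p 0.388). In experiment 2 it stood at 660, 661 and 655 CPM in tagged and at 827, 850 and 844 in Trim71KO libraries. There the groups were apart (0.35, SE 0.06, edgeR adjusted p 8.72e-05). The homeobox factor Nanog showed 762, 832 and 740 CPM against 803, 787 and 767 in experiment 1 (0.01, SE 0.09, edgeR adjusted p 0.918) and 755, 745 and 755 against 965, 984 and 924 in experiment 2 (0.35, SE 0.06, edgeR adjusted p 8.52e-05). Pou5f1, a POU-domain factor, differed least among the 3. Its experiment 2 values were 1445, 1519 and 1341 CPM in tagged and 1696, 1754 and 1551 in Trim71KO (0.22, SE 0.06, edgeR adjusted p 0.00951), and the call was lost without tagged input replicate 3 (0.17, edgeR adjusted p 0.075) or Trim71KO input replicate 2 (0.18, edgeR adjusted p 0.0598), and with library size alone (0.15, edgeR adjusted p 0.159).

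The Krüppel-like factors are zinc-finger proteins that share DNA sites, and they changed differently. Klf4 had 492, 425 and 494 CPM in tagged and 714, 787 and 844 in Trim71KO input of experiment 1. This was the largest difference among the members in experiment 1 (0.73, SE 0.10, edgeR adjusted p 5.66e-06). In experiment 2 Klf4 had 623, 578 and 610 CPM in tagged and 745, 666 and 748 in Trim71KO libraries, which did not overlap (0.25, SE 0.06, edgeR adjusted p 0.00405). Klf2 was not called in experiment 1, with 237, 310 and 309 CPM against 300, 321 and 296 (0.10, SE 0.12, edgeR adjusted p 0.573). It was higher in experiment 2, with 265, 278 and 265 against 354, 410 and 348 CPM (0.46, SE 0.12, edgeR adjusted p 0.00434).

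Among the other naive factors, Tbx3 and Prdm14 were higher in Trim71KO input of both experiments. Tbx3, a T-box factor, stood at 430, 374 and 392 CPM in tagged and at 594, 575 and 617 in Trim71KO input of experiment 1, and at 478, 467 and 459 against 611, 618 and 596 in experiment 2. The groups were apart in both (0.58, SE 0.09, edgeR adjusted p 5.07e-05; 0.38, SE 0.07, edgeR adjusted p 0.000138). Prdm14 stood at 36.6, 36.3 and 43.2 against 56.4, 48.2 and 51.0 CPM in experiment 1 (0.42, SE 0.09) and at 39.6, 42.3 and 40.2 against 61.6, 61.6 and 53.5 in experiment 2 (0.53, SE 0.07).

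Esrrb, an orphan nuclear receptor, and Tfcp2l1, a CP2-family factor, were called in experiment 1 and not in experiment 2. Esrrb had 705, 601 and 678 CPM in tagged and 842, 856 and 859 in Trim71KO input of experiment 1 (0.37, SE 0.09, edgeR adjusted p 0.0031). In experiment 2 it had 813, 809 and 816 against 781, 798 and 811 CPM, which overlapped (-0.03, SE 0.05, edgeR adjusted p 0.718). Tfcp2l1 was the second largest difference of experiment 1, with 630, 403 and 532 against 814, 854 and 883 CPM (0.71, SE 0.13, edgeR adjusted p 0.000208). In experiment 2 it had 1033, 929 and 984 against 1044, 1052 and 1199 CPM, barely apart (0.16, SE 0.06, edgeR adjusted p 0.0574). That value passed the threshold without tagged input replicate 1 or Trim71KO input replicate 1 (edgeR adjusted p down to 0.0293), and also with RLE size factors, without a filter and by DESeq2. Zfp42, a zinc-finger protein used as a marker of the naive state, had 734, 780 and 766 against 836, 849 and 855 CPM in experiment 1 without passing the test (0.16, SE 0.08, edgeR adjusted p 0.15). It was higher in experiment 2, with 701, 702 and 661 against 868, 891 and 838 CPM (0.33, SE 0.06, edgeR adjusted p 7.78e-05).

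**Figure D2:**
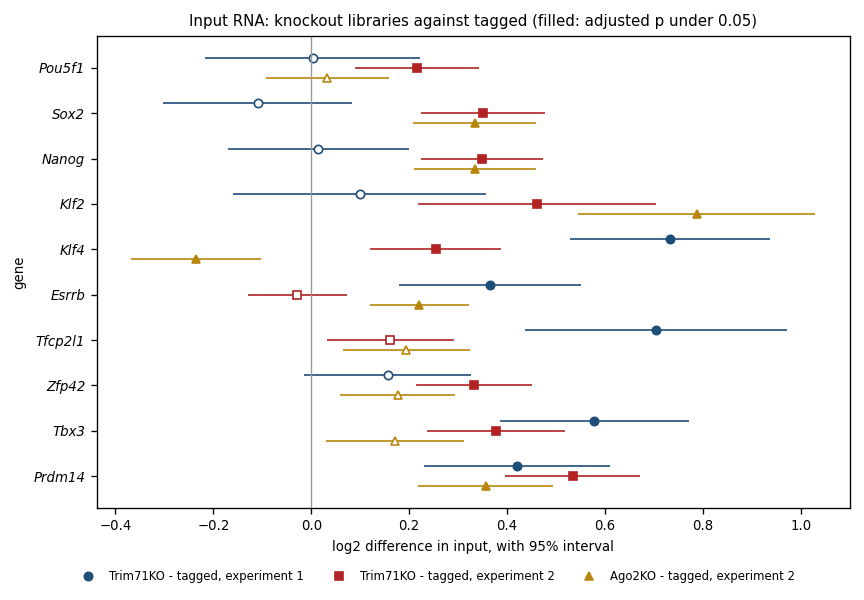
Log2 difference in input RNA between knockout-labelled and tagged libraries for each gene, with 95% intervals; circles are Trim71KO in experiment 1, squares Trim71KO in experiment 2 and triangles Ago2KO in experiment 2, filled where the edgeR adjusted p is under 0.05. Klf4 lies at 0.73 and 0.25 in Trim71KO and at -0.24 in Ago2KO, and Klf2 reaches 0.79 in Ago2KO.

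Ago2KO input of experiment 2 showed 5 members higher and 1 lower than tagged input, where 4.38% and 2.57% of all genes were called. The higher calls made up 63% of all calls, and 51.1% when scaling used library size alone. Under that scaling 4 members were called higher and 1 lower. Klf2 differed most, with 265, 278 and 265 CPM in tagged and 454, 476 and 465 in Ago2KO libraries (0.79, SE 0.12, edgeR adjusted p 7.4e-05). Every Ago2KO library thus held more Klf2 mRNA than any tagged or Trim71KO input library. Sox2 (854, 817 and 820 CPM; 0.33, SE 0.06), Nanog (933, 958 and 952 CPM; 0.33, SE 0.06), Prdm14 (53.5, 51.1 and 51.6 CPM; 0.36, SE 0.07) and Esrrb (936, 957 and 947 CPM; 0.22, SE 0.05) were also higher than in tagged libraries and did not overlap them. The Esrrb call was lost with library size alone (0.18, edgeR adjusted p 0.075). Klf4 was lower, with 533, 508 and 498 CPM against 623, 578 and 610 (-0.24, SE 0.06, edgeR adjusted p 0.0251). That call was lost without tagged input replicate 1 or 3 or Ago2KO input replicate 2 or 3, where the difference was -0.23, -0.23, -0.22 and -0.21 and the edgeR adjusted p reached 0.111. Tfcp2l1, Zfp42 and Tbx3 were not called (0.19, 0.18 and 0.17; edgeR adjusted p 0.0616, 0.0632 and 0.144), although all their Ago2KO libraries lay above the tagged ones. All 3 passed when the fit held only the groups compared, Tfcp2l1 and Zfp42 also by DESeq2, and Tfcp2l1 also with the replicate block within fraction. Pou5f1 was not called (0.03).

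The knockout libraries of experiment 2 were also set against each other in input, since both comparisons above share the tagged libraries. Klf4 was higher in Trim71KO than in Ago2KO (0.49, SE 0.06, edgeR adjusted p 2.07e-06), with all 3 Trim71KO libraries above all 3 Ago2KO libraries. Esrrb was lower in Trim71KO (-0.25, SE 0.05, edgeR adjusted p 0.000352). Klf2 was lower too (-0.33, SE 0.12, edgeR adjusted p 0.0382), a call lost when any 1 library but Trim71KO input replicate 2 was left out (edgeR adjusted p up to 0.164), and also lost with RLE size factors, without a filter and by DESeq2 (adjusted p 0.0659, 0.0596 and 0.0562). Pou5f1 (0.18), Zfp42 (0.16), Tbx3 (0.21) and Prdm14 (0.18) were called higher, each with an edgeR adjusted p between 0.0241 and 0.045 and lost in 2 to 4 of the 6 fits with a library left out. For Prdm14 the libraries overlapped. The libraries concerned were Trim71KO input replicates 1 and 2 and Ago2KO input replicates 2 and 3, and 2 members alone were called without Ago2KO input replicate 3. Altogether 5 members were called higher and 2 lower, where 13.2% and 15.1% of all genes were called. With library size alone 2 were higher and 2 lower, and Pou5f1, Zfp42 and Prdm14 lost their calls (edgeR adjusted p 0.151, 0.136 and 0.133). Sox2 and Nanog stood close in both, with differences of 0.02 (95% interval -0.11 to 0.14) and 0.02 (-0.11 to 0.14).

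Tagged input was also set against untagged input. Here the tag cannot be told apart from other differences between the cell lines. In experiment 1 Sox2 (0.48, SE 0.09, edgeR adjusted p 0.00247) and Nanog (0.45, SE 0.09, edgeR adjusted p 0.0025) were higher in tagged cells, 2 of 10 members where 5.69% of genes were called higher and 4.87% lower. Sox2 had 419, 441 and 455 CPM in untagged input and Nanog 557, 552 and 595, all below the tagged libraries. Of all calls 53.9% were higher, and 35.3% with library size alone. Without tagged input replicate 1, Tfcp2l1 was also called lower (-0.42, edgeR adjusted p 0.0254) and Zfp42 higher (0.27, edgeR adjusted p 0.0398). In experiment 2 edgeR called 0 members, where 0.809% and 0.581% of genes were called. There 7 members had an unadjusted p under 0.05 and DESeq2 called 2, Nanog and Esrrb. Nanog came nearest, with 610, 628 and 689 CPM in untagged against 755, 745 and 755 in tagged input (0.23, SE 0.06, edgeR adjusted p 0.0595), and passed without untagged input replicate 3 (0.28, edgeR adjusted p 0.0383).

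IP enrichment was tested as log2 of IP over input in 1 genotype minus the same in another. A change of input that the IP follows in proportion cancels. A change of input that the IP does not follow counts as a difference in enrichment. Between tagged and untagged cells, the tested difference is taken as the recovery that the tag brings. In experiment 1, 5 members were called higher and 3 lower, where 28.1% of all genes were called higher and 28.8% lower. In experiment 2, 5 were higher and 1 lower, against 18.9% and 8.77%. The 5 higher members were Klf2, Klf4, Tbx3, Sox2 and Tfcp2l1 in both experiments. The median of all genes was -0.10 and -0.03, and that of the members 0.36 and 0.25. All genes spread widely, with quartiles at -0.722 and 0.784 for experiment 1 and at -0.27 and 0.398 for experiment 2. A member can therefore be called while its value lies between the quartiles. In experiment 2 the split into higher and lower calls depends on scaling. With library size alone the median of all genes moved to -0.24, the higher calls went from 68.4% to 36.5% of all calls, and 3 members were called higher and 4 lower.

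Klf2 mRNA was recovered far more strongly than that of any other member. In untagged cells it stood at 418, 442 and 389 CPM in IP of experiment 1 and 282, 276 and 332 in experiment 2. In tagged cells it stood at 3537, 2718 and 2769 CPM in IP of experiment 1 and at 1975, 1521 and 1234 in experiment 2, with input between 237 and 310 CPM. IP over input was thus 10.5-fold in tagged against 1.59-fold in untagged cells of experiment 1 and 5.86-fold against 1.1-fold in experiment 2. The tag-specific log2 enrichment was 2.73 (SE 0.18, edgeR adjusted p 4.33e-12) and 2.42 (SE 0.17, edgeR adjusted p 8.45e-12). Klf4, whose protein shares DNA sites with that of Klf2, was recovered less, with tagged IP at 1282, 1195 and 1301 CPM and untagged IP at 452, 435 and 475 in experiment 1 (1.51, SE 0.14, edgeR adjusted p 2.38e-09). In experiment 2 its tagged IP libraries held 972, 867 and 830 CPM and the untagged ones 525, 532 and 522 (0.62, SE 0.09, edgeR adjusted p 4.69e-06).

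Among the core factors, Sox2 was called enriched and Pou5f1 depleted. Ranked among all genes, Sox2 was at percentile 74.5 in both experiments. Pou5f1 was at percentile 17.2 and then 28.2, and Nanog at 31.9 and then 41.7. Of these, only Pou5f1 in experiment 1 lay outside the quartiles of all genes. Sox2 stood at 979, 875 and 977 CPM in tagged IP against 408, 375 and 416 in untagged IP of experiment 1 (0.76, SE 0.13, edgeR adjusted p 3.09e-05). In experiment 2 it stood at 889, 839 and 765 against 528, 584 and 568 CPM (0.39, SE 0.09, edgeR adjusted p 0.00115), a call lost with library size alone (0.17, edgeR adjusted p 0.122). Pou5f1 stood at 1635, 1514 and 1587 CPM in untagged IP and at 784, 958 and 828 in tagged IP of experiment 1 (-0.91, SE 0.15, edgeR adjusted p 1.66e-05). In experiment 2 it was at 1534, 1560 and 1645 against 1195, 1330 and 1339 CPM (-0.24, SE 0.09, edgeR adjusted p 0.0395). That call was lost without untagged input replicate 2 or 3, tagged input replicate 2, untagged IP replicate 3 or tagged IP replicate 1, with an edgeR adjusted p up to 0.12. Nanog was lower in experiment 1 (-0.55, SE 0.13, edgeR adjusted p 0.000631), where its IP libraries overlapped between tagged and untagged cells and its input was higher in tagged cells. In experiment 2 Nanog was at -0.12 (SE 0.09, edgeR adjusted p 0.35), and it was called lower with library size alone (-0.32, edgeR adjusted p 0.00786).

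Of the other naive factors, Tbx3 and Tfcp2l1 were called enriched. Ranked among all genes, Tbx3 was at percentile 81.5 and then 80.4. Tfcp2l1 was at 72.7 and then 74, between the quartiles in both experiments. Tbx3 stood at 792, 808 and 897 CPM in tagged IP and 338, 370 and 390 in untagged IP of experiment 1 (1.17, SE 0.13, edgeR adjusted p 7.25e-08), and at 711, 628 and 596 against 346, 377 and 385 in experiment 2 (0.58, SE 0.10, edgeR adjusted p 3.25e-05). Tfcp2l1 reached 0.67 (SE 0.18, edgeR adjusted p 0.00296) in experiment 1 and 0.37 (SE 0.09, edgeR adjusted p 0.00224) in experiment 2. The latter call was lost with library size alone (0.16, edgeR adjusted p 0.228). Esrrb (0.04 and -0.03) and Prdm14 (-0.06 and 0.14) were not called in either experiment. With library size alone Esrrb was called lower in experiment 2 (-0.24, edgeR adjusted p 0.0332). Zfp42 was called lower in experiment 1 (-0.28, SE 0.12, edgeR adjusted p 0.0468), a call lost when any library but tagged IP replicate 3 was left out (edgeR adjusted p up to 0.18). It was also lost with RLE size factors, with library size alone, with either replicate block (edgeR adjusted p 0.06 and 0.0882) and with only the groups compared. In experiment 2 it was at -0.15 (edgeR adjusted p 0.168), or called lower with library size alone (-0.36, edgeR adjusted p 0.00167).

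**Figure D3:**
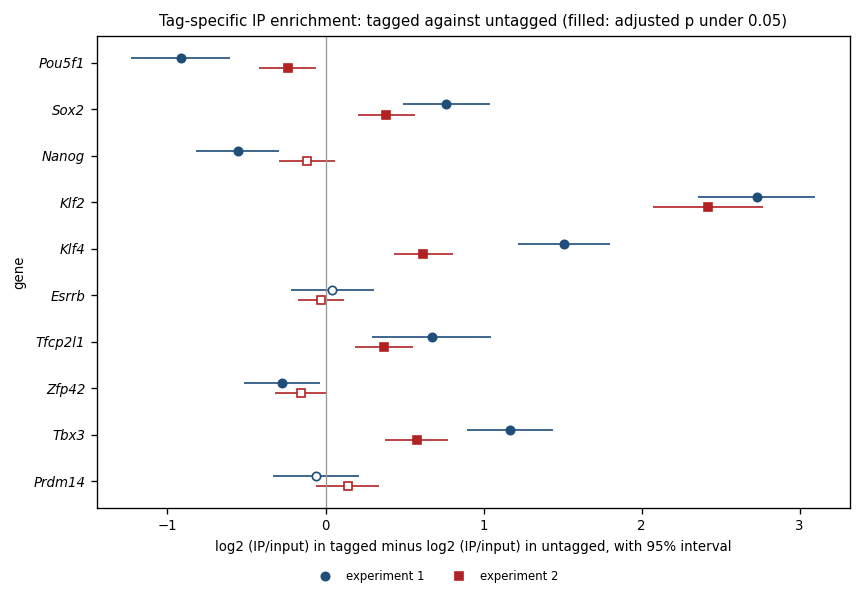
Tag-specific IP enrichment of each gene, as log2 of IP over input in tagged minus untagged cells with 95% intervals, for experiment 1 (circles) and experiment 2 (squares); filled symbols have an edgeR adjusted p under 0.05. Klf2 lies at 2.73 and 2.42, and Pou5f1 at -0.91 and -0.24.

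IP enrichment in the knockout-labelled cells asks whether recovery with Tnrc6a differs from that in tagged cells. For Trim71KO, edgeR called 0 members in experiment 1, where 0.272% of genes were higher and 3.47% lower. There 1 member had an unadjusted p under 0.05, Nanog (0.29, SE 0.13, edgeR adjusted p 0.258), and DESeq2 called 0. Nanog passed without Trim71KO IP replicate 1 (0.41, edgeR adjusted p 0.0348). In experiment 2, 1 member was higher and 0 lower, where 0.753% and 0.738% of genes were called. There 5 members had an unadjusted p under 0.05, with Klf2, Klf4, Esrrb and Tbx3 positive and Pou5f1 negative. The median of the members was 0.15 in experiment 1 and 0.16 in experiment 2, and that of all genes -0.04 and 0.008. Of all calls 7.25% were higher in experiment 1 and 24.6% with library size alone, and 50.5% in experiment 2, or 75.7% with library size alone and 38.6% with RLE size factors.

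The member called in experiment 2 was Klf4, which had 972, 867 and 830 CPM in tagged IP and 1427, 1344 and 1384 in Trim71KO IP, next to input means of 604 and 720 CPM. IP over input was 1.47-fold in tagged and 1.92-fold in Trim71KO cells (0.38, SE 0.09, edgeR adjusted p 0.0308). The call was lost in 9 of the 12 fits with a library left out, all but those without tagged input replicate 2, Trim71KO input replicate 3 or tagged IP replicate 1, with an edgeR adjusted p up to 0.139. It was also lost with RLE size factors, without a filter and with only the groups compared (edgeR adjusted p 0.0515, 0.0588 and 0.103). In experiment 1 Klf4 had 1282, 1195 and 1301 against 2271, 1990 and 1892 CPM in IP, but its input differed as much and the ratio did not (-0.03, SE 0.14, edgeR adjusted p 0.95). Klf2 had 1975, 1521 and 1234 CPM in tagged IP and 3074, 3084 and 3246 in Trim71KO IP of experiment 2. IP over input was 5.86-fold and 8.46-fold without passing the test (0.53, SE 0.17, edgeR adjusted p 0.113). In experiment 2, tagged and Trim71KO samples of the same replicate number deviated together from their group means, in input and in IP. Pairing by replicate number was inferred from these correlations alone. With the replicate block within fraction, both Klf2 (0.55, edgeR adjusted p 0.0459) and Klf4 (0.39, edgeR adjusted p 0.00781) were called. Klf2 also passed without tagged IP replicate 1 (0.72, edgeR adjusted p 0.0078), its highest tagged IP library. In experiment 1 the Klf2 difference was 0.36 (SE 0.18, edgeR adjusted p 0.352).

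For Ago2KO, edgeR called 0 members, where 0.384% of genes were higher and 3.77% lower, or 26.1% of calls higher with library size alone against 9.25%. There 1 member had an unadjusted p under 0.05, Klf2, and DESeq2 called 0. Klf2 had 2330, 1649 and 1806 CPM in Ago2KO IP, overlapping the tagged IP, while its input was higher. IP over input was 4.15-fold in Ago2KO against 5.86-fold in tagged cells (-0.50, SE 0.17, edgeR adjusted p 0.105). It passed the threshold without tagged IP replicate 3 (-0.68, edgeR adjusted p 0.00432) or Ago2KO IP replicate 1 (-0.66, edgeR adjusted p 0.00698). With the replicate block within fraction it was called (-0.50, edgeR adjusted p 0.0461), and with the block pairing IP with its input it was not (-0.49, edgeR adjusted p 0.0664). Klf4 had 774, 682 and 668 CPM in Ago2KO IP, below the tagged IP as its input was (-0.09, SE 0.09, edgeR adjusted p 0.769). The other 8 members lay between -0.09 and 0.17.

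Between the knockouts, 4 members had a higher IP enrichment in Trim71KO than in Ago2KO and 0 a lower one, where 8.94% and 2.86% of genes were called. Klf2 differed most (1.03, SE 0.17, edgeR adjusted p 9.43e-05), with IP over input at 8.46-fold and 4.15-fold and with every Trim71KO IP library above every Ago2KO IP library. Klf4 followed (0.48, SE 0.09, edgeR adjusted p 0.000631), at 1.92-fold and 1.38-fold. Esrrb (0.23, SE 0.07, edgeR adjusted p 0.0261) and Tfcp2l1 (0.27, SE 0.09, edgeR adjusted p 0.0477) were called as well, and both calls were lost with library size alone, that of Tfcp2l1 also with only the groups compared. In the 12 fits with a library left out, Tfcp2l1 kept its call only without Trim71KO input replicate 3 or Ago2KO IP replicate 2. Esrrb lost its call without Trim71KO input replicate 1, Ago2KO input replicate 2 or 3, any Trim71KO IP replicate or Ago2KO IP replicate 1 (edgeR adjusted p up to 0.13). For Esrrb the IP levels overlapped (855 and 864 CPM on average) while the input differed.

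**Figure D4:**
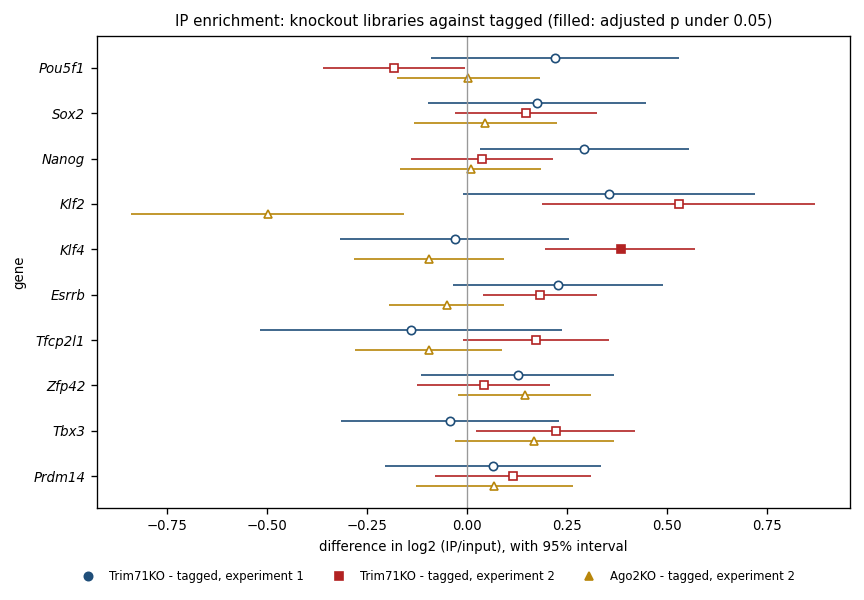
Difference in log2 of IP over input between knockout-labelled and tagged cells for each gene, with 95% intervals; circles are Trim71KO in experiment 1, squares Trim71KO in experiment 2 and triangles Ago2KO in experiment 2, filled where the edgeR adjusted p is under 0.05. Klf2 lies at 0.36 and 0.53 in Trim71KO and at -0.50 in Ago2KO, and Klf4 in experiment 2 is the filled symbol at 0.38.

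Whether the experiments differ was tested in 1 fit over both, on the 18620 genes with a row in each. For the Trim71KO input difference 5 of 10 members differed between experiments, where 22.8% of genes did. The difference was larger in experiment 1 for Klf4, Esrrb and Tfcp2l1, and larger in experiment 2 for Sox2 and Nanog. For tag-specific enrichment 4 of 10 differed, where 28.5% of genes did, with Klf4, Tbx3 and Sox2 higher and Pou5f1 lower in experiment 1. For tagged against untagged input (2.89% of genes) and for Trim71KO IP enrichment (0.0967%) edgeR called 0 members, with 4 and 2 of them at an unadjusted p under 0.05. DESeq2 was not run on that fit.

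The other genes of the network were taken from lists written with earlier results of these data known. Their counts stand beside the same shares of all genes called, which in Trim71KO input were 16.5% higher and 17.4% lower in experiment 1 and 13.5% and 13.7% in experiment 2, and in Ago2KO input 4.38% and 2.57%. Of the 16 other naive network genes, 15 were tested in experiment 1, where 5 were higher and 5 lower in Trim71KO input (median -0.08). The largest changes were those of Dppa2 (-0.88), Gbx2 (-0.77) and Fgf4 (0.66), the last a growth factor that promotes exit from the naive state. In experiment 2, 7 of 16 were higher and 2 lower (median 0.23), among them Dppa3 (-1.48) and Nr0b1 (0.70). In Ago2KO input 3 were higher, Fbxo15 (0.35), Dppa5a (0.24) and Tcl1 (0.20), and 0 lower. The list therefore did not move in 1 direction in Trim71KO cells.

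The 9 genes of the LIF-STAT3 pathway, which feeds Klf4 and Tfcp2l1, were recovered with the tag. All 9 had a higher tag-specific IP enrichment in both experiments (median 1.83 and 0.98, against -0.10 and -0.03 for all genes), where 28.1% and 18.9% of all genes were called higher. Socs3, the feedback inhibitor of the pathway, stood at 4.19 and 3.04, the cytokine gene Lif at 4.53 and 2.71 and the receptor gene Il6st at 2.73 and 1.44. In Trim71KO input 2 of 9 were higher and 1 lower in each experiment, shares near those of all genes. Stat3 was among the higher ones in both (0.42 and 0.48), and the kinase gene Pim1, a Stat3 target, fell by 0.98 and by 1.01. In Ago2KO input 1 of 9 was called, Il6st (0.58). In IP enrichment of Trim71KO against Ago2KO, 5 of 9 were higher, against 8.94% of all genes, led by Il6st (0.93), Bcl3 (0.49) and Pim1 (0.49).

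Of 9 genes that drive exit from naive pluripotency, 4 were higher and 2 lower in Trim71KO input of experiment 1 and 6 higher and 1 lower in experiment 2. Fnip2, a partner of folliculin, was higher in both (0.54 and 0.36), Fnip1 in experiment 1 (0.51) and Tcf7l1, a repressor of the naive network, in experiment 2 (0.44), while Zfp706 fell by 0.43 in experiment 1. In Ago2KO input 1 of 9 was higher, Tfe3 (0.24). Of the formative and primed genes, 10 were tested. In Trim71KO input 1 was higher and 4 lower in experiment 1, among them Lef1 (-2.30), Zic2 (-1.15) and Dnmt3a (-0.99), and 2 were higher and 4 lower in experiment 2. There Lef1 (-1.67) and Cdh2 (-1.03) were lower and Otx2, a factor of the primed state, was higher (1.22). In Ago2KO input 3 were higher and 2 lower, with Zic2 at 1.10, Lef1 at 0.82 and Etv4 at -0.55.

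Among the markers of other cell types, most of those of primitive endoderm were lower in knockout input. Summed over the 8 primitive endoderm markers of experiment 1, CPM ran from 66.5 to 89.3 in tagged and from 12.9 to 15.4 in Trim71KO input, and 7 of 8 were lower (median -2.88). In experiment 2 the sum of 7 markers ran from 22.9 to 25.3 in tagged, from 8.8 to 10.7 in Trim71KO and from 10.1 to 11.5 in Ago2KO input, with 6 and 4 of 7 lower (median -1.6 and -1.12). Gata6, the defining factor of that lineage, went from 10.7 to 0.415 CPM in experiment 1 and from 4.46 to 0.664 in Trim71KO and 1.37 in Ago2KO of experiment 2. Fibroblast markers (3 of 6 with a row) summed to 30.9 to 32.6 CPM in tagged and 67 to 71.8 in Trim71KO input of experiment 1, and to 54.3 to 57.1 and 58.5 to 62.1 in experiment 2. Of these 3, Thy1 and Col1a1 were called higher in experiment 1 (1.36 and 1.02), while in experiment 2 Thy1 was higher (0.64), Pdgfrb lower (-1.05) and Col1a1 not called (-0.35). Neuroectoderm markers (3 of 5) summed to 17.2 to 20.4 CPM in tagged and 12.1 to 14.6 in Trim71KO input of experiment 1, and to 21.4 to 23.7 and 12.3 to 17 in experiment 2. Of these, 1 was called lower and 0 higher in each experiment. In Ago2KO input of experiment 2 the neuroectoderm markers summed to 24.3 to 26.8 CPM, above tagged. The fibroblast markers summed to 44.5 to 51 there, below tagged. Of the 3 markers tested in each of these lists, 0 were called in Ago2KO input. Over all input libraries, trophectoderm markers (2 of 5) summed to at most 13.9, mesoderm markers to at most 3.51 and 2-cell-like markers to at most 1.81. Fgf5 and the markers Cdx2, Elf5, Gata3, Mesp1, Neurog2, Col1a2, Col3a1, Twist2 and Tcstv3 had no row matched by symbol and were therefore not analysed. The same held for Dppa3, T and Zscan4d in experiment 1 and for Foxa2 in experiment 2. The part of other cell types in the member differences was not tested.

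To describe which genes behave most like each member, log2 CPM was averaged per group, centred within each experiment and correlated over the 14 groups, which share libraries' depth and the IP step, with 11600 candidate genes. Klf2 was most like Atf6b (r = 0.995), Pou5f1 like Farsa (0.992), Klf4 like Mtmr10 (0.989), Tbx3 like Shisa2 (0.987), Sox2 like Grsf1 (0.976), Prdm14 like Il34 (0.971), Tfcp2l1 like Smad3 (0.969), Zfp42 like Trh (0.967), Esrrb like Ttc21b (0.923) and Nanog like Rpl10l (0.904). Among the members themselves, Nanog and Zfp42 were closest (0.946), then Sox2 and Tbx3 (0.941) and Klf4 and Tbx3 (0.938). Pou5f1 ran opposite to Klf2 (-0.851), Klf4 (-0.783) and Sox2 (-0.761). These values describe 14 group means and carry no test.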

How the data were processed

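RNA of input and anti-HA IP was sequenced from mouse embryonic stem cells as stranded total RNA. Reads were aligned with STAR 2.7.3a after bcl2fastq 2.20, and GRCm38 is the build named, per the submitters' processing notes. The counting settings, the use of strand and the annotation version are not given in the sources used here. The deposited tables hold, per the file headers, raw counts per gene and RPKM values made by the authors. Counts were used for every test, and the authors' RPKM only to check the order of levels. Counts of Sox2, Esrrb, Tfcp2l1 and Tbx3 are uncertain where another annotated gene overlaps them, and those of Pou5f1, Nanog and Zfp42 where pseudogenes share reads.

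Each experiment was fitted with all its groups in 1 model by edgeR 4.0.16 (R 4.3.3, limma 3.58.1) with TMM scaling, filterByExpr and the quasi-likelihood test, and p-values were adjusted by Benjamini-Hochberg over all genes tested (18772 and 19778). IP enrichment is an interaction term. The experiments were compared in a fit over both, added after seeing the data. The test of Trim71KO against tagged IP enrichment was tried on simulated data, in which only the Trim71KO IP group differed. Its outcome is not reported here, and it does not cover the other comparisons. Alternatives were RLE size factors, library size alone, no filter, a replicate block, only the groups compared, DESeq2 1.42.0 and leaving out each library.

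Replicate numbers were checked for pairing by correlating deviations from group means. In experiment 2 every pair exceeded 0.1 for tagged and Trim71KO input (0.206, 0.273 and 0.299), tagged and Trim71KO IP (0.318, 0.183 and 0.333), and tagged input and IP (0.104, 0.139 and 0.183). In the other group pairs, including all of experiment 1, not every value did.

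The members and the gene lists were chosen with earlier results of these data known. Named genes are the 10 members, the genes that check the labels, up to 3 called genes with the largest change per list, and the gene most like each member among those with a mean log2 CPM of at least 2. Gata6 and the fibroblast markers were named after their values were seen. Some genes of the lists are counted but not reported by name here.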

Additional observations from a re-analysis of the deposited data

Results flagged for a closer look

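For 9 member values the experiments differed by the test of the difference itself, on 18620 genes fitted together. Values are the log2 difference of experiment 1 minus experiment 2 as estimated in that fit. Its TMM factors were set over both experiments, so a value can depart from the subtraction of the separate values given above. For Trim71KO against tagged input, Sox2 was at -0.46 (SE 0.11, edgeR adjusted p 0.00225), with -0.11 in experiment 1 and 0.35 in experiment 2. Nanog was at -0.33 (SE 0.10, edgeR adjusted p 0.0161), and lost the call with library size alone (-0.22, edgeR adjusted p 0.145) and without tagged input replicate 2 of experiment 1 (-0.28, edgeR adjusted p 0.0572). Klf4 was at 0.48 (SE 0.12, edgeR adjusted p 0.00214), Esrrb at 0.40 (SE 0.09, edgeR adjusted p 0.00157) and Tfcp2l1 at 0.55 (SE 0.14, edgeR adjusted p 0.00473).

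For tag-specific IP enrichment, Klf4 was at 0.99 (SE 0.16, edgeR adjusted p 3.37e-05), Tbx3 at 0.69 (SE 0.16, edgeR adjusted p 0.00134) and Sox2 at 0.48 (SE 0.15, edgeR adjusted p 0.0166). The Sox2 call was lost without tagged input replicate 3 of experiment 1 (0.34, edgeR adjusted p 0.0984). Pou5f1 was at -0.57 (SE 0.17, edgeR adjusted p 0.00859), and at -0.43 (edgeR adjusted p 0.0853) with library size alone. That scaling moved the median of all genes to 0.12 for the input difference and 0.19 for the IP difference. Klf2, the member with the largest enrichment in both experiments, was not called (0.41, SE 0.26, edgeR adjusted p 0.244). The cause of these differences was not tested.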

How the results depend on the processing

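Of 900 values under the alternative settings 850 kept their side of the threshold, 23 lost the call and 27 gained one, and of 1800 values with a library left out 1716, 68 and 16 did. No called value changed sign, but 37 and 84 values that were not called did. The number of members called moved by over 1.5 times as follows, and the cause was not tested. For tagged against untagged input of experiment 2, 0 members became 1 with library size alone, 1 without a filter, 4 with only the groups compared and 2 by DESeq2, and 0 to 1 with a library left out. In experiment 1 that count ran from 2 to 4 with a library left out. For Trim71KO against Ago2KO, 7 in input became 4 with library size alone and 2 to 6 with a library left out, and 4 in IP enrichment became 2 and 2 to 4. For Trim71KO IP enrichment of experiment 2, 1 became 0 with RLE, 0 without a filter, 0 with only the groups compared, 2 with library size alone, 2 with the replicate block within fraction, 2 with the replicate block pairing IP with its input, and 0 to 2 with a library left out. The count was 0 to 1 in experiment 1 with a library left out. For Ago2KO IP enrichment 0 became 1 with the replicate block within fraction (Klf2 at -0.50, edgeR adjusted p 0.0461), stayed 0 with the replicate block pairing IP with its input (edgeR adjusted p 0.0664), and 0 to 1 with a library left out. The replicate block moved no other count of members by over 1.5 times. For the difference between experiments, the count ran from 0 to 1 for tagged against untagged input and from 0 to 2 for Trim71KO IP enrichment with a library left out. Over all genes, Trim71KO IP enrichment of experiment 2 gave 295 calls, 470 and 522 with the replicate blocks, 489 with library size alone and 136 with only the groups compared, while Ago2KO input went from 1376 to 2481 and tagged against untagged input of experiment 2 from 275 to 497 with only the groups compared. With 3 libraries a group, the 95% interval of an IP enrichment difference of Klf2 in experiment 2 spans 0.19 to 0.87 for Trim71KO. That interval is not adjusted for the number of genes, and the difference was not called (edgeR adjusted p 0.113).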
